A study of Homo sapiens with 6 samples.

Results

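The 87 genes described here encode the nuclear subunits of the oxidative phosphorylation chain, sorted by the complex they belong to. They were taken as the protein-coding genes whose symbols, current or older, name subunits of complex I (NDUFA, NDUFB, NDUFC, NDUFS and NDUFV), complex II (SDH), complex III (UQCR and CYC1), complex IV (COX4 to COX8) and complex V (ATP5). This gave 36 genes of complex I, 4 of complex II, 9 of complex III, 18 of complex IV and 20 of complex V, among 20169 genes in the count table. NDUFA4 was counted with complex IV, where its protein is known to sit, and 2 pseudogenes with matching symbols (COX6A1P2 and ATP5F1EP2) were not counted.

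RNA-seq of polyadenylated RNA was done on monoclonal HEK293T landing pad lines, with 3 libraries of a line carrying the CAG promoter and 3 of a line carrying the PGK promoter. HEK293T is a human embryonic kidney line with a viral large T antigen, and a landing pad is a site engineered to take up a transgene. CAG is a strong composite promoter, PGK is the promoter of a glycolytic enzyme gene, and both lines were grown in DMEM with serum and antibiotics. The comparison asks how the RNA of these host lines, made for a study of 3'UTRs, differed. No label separates several clones of a promoter, so promoter and clone cannot be told apart. Separate cultures are not stated for the 3 libraries of a line, and the p-values therefore rest on a spread that may be technical. Total counts were 22450538, 23315828 and 23442542 in the CAG libraries, and 21896246, 22528774 and 22889708 in the PGK libraries. Of 9 listed markers of the HEK293 lineage, 6 were in the table, with a summed level of 684 to 714 CPM, the read count scaled to the size of the library, in CAG and 510 to 515 CPM in PGK. VIM alone gave 631 CPM of this in CAG and 455 CPM in PGK. KRT18 had 57.1 CPM in CAG and 52.2 CPM in PGK, KRT8 5.35 and 1.09 CPM, and EYA1 5.23 and 2.57 CPM. PAX2 had 1.27 CPM in CAG and 1.55 CPM in PGK, and PAX8 was at or near 0 in both lines. Of 11 markers of other cell types, 10 were in the table with sums of 24.4 to 24.7 CPM in CAG and 20.7 to 21.8 CPM in PGK, mostly from COL1A1, and CD3E and ALB were at 0. The part of these markers in the results was not tested.

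Oxidative phosphorylation takes electrons from NADH at complex I and from succinate at complex II, passes them through ubiquinone, complex III and cytochrome c to oxygen at complex IV, and uses the proton gradient so made to drive ATP synthesis at complex V. Complexes I, III, IV and V combine subunits from the nuclear genome with subunits from the mitochondrial genome, while complex II is wholly nuclear. NRF1, GABPA (a factor of the ETS family) and YY1 are known activators of these nuclear genes. Proliferating cultured cells such as HEK293T express nearly all of them, apart from isoforms used in muscle, testis or lung.

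Promoter sequences are shown for members that were higher in CAG and for members that were lower, so that their sites for these factors can be set side by side. RefSeq windows from 250 bases before to 50 after the gene start (GRCh38.p14) were matched for 65 of the 79 tested members and searched on both strands. The NRF1 motif, GCGCA and GCGC with any 1 base between them, was found in 16 of the 65 windows (24.6%), against 11.6% of the windows of 10240 tested genes and 6.28% of all 27305 windows. The ETS motif CCGGAAGT was found in 10 (15.4%, against 8.71% and 4.44%), and the YY1 motif, AAGAT followed directly by GGCGG, in 7 (10.8%, against 2.82% and 1.28%). No match of one motif overlapped a match of another in these members. For 10 genes chosen after their values were seen, 30 bases around 1 match are given on the strand of the gene, with the motif or its reverse complement in capitals.
NDUFA3, NRF1 motif, GRCh38.p14 chr19:54102675-54102704, plus strand: ctgcgcgagtGCGCACGCGCaggctccgaa
UQCRFS1, NRF1 motif, GRCh38.p14 chr19:29213163-29213192, minus strand: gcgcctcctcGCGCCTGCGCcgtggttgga
UQCRC1, NRF1 motif, GRCh38.p14 chr3:48609674-48609703, minus strand: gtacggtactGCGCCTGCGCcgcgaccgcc
ATP5F1C, NRF1 motif, GRCh38.p14 chr10:7788145-7788174, plus strand: gggagcttcgGCGCATGCGCgctgaggcct
SDHD, NRF1 motif, GRCh38.p14 chr11:112086753-112086782, plus strand: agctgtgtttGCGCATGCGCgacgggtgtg
UQCR11, NRF1 motif, GRCh38.p14 chr19:1605472-1605501, minus strand: ccctccccgcGCGCGTGCGCgccgcggccg
COX5B, ETS motif, GRCh38.p14 chr2:97646014-97646043, plus strand: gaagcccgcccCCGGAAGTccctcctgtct
COX8A, ETS motif, GRCh38.p14 chr11:63974590-63974619, plus strand: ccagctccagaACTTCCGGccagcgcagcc
ATP5MD, ETS motif, GRCh38.p14 chr10:103396617-103396646, minus strand: gtgcaattcttCCGGAAGTgtgggcgggct
ATP5PD, ETS motif, GRCh38.p14 chr17:75047053-75047082, minus strand: cccgggaagatACTTCCGGaaccagccctc
In the first 4 windows the gene was higher in CAG, and in the other 6 it was lower. SDHD and UQCR11, printed with an NRF1 motif, also hold an ETS motif in their promoter windows and are counted under both motifs. The 16 tested members with an NRF1 motif held 4 higher and 6 lower genes with a median log2 fold change (CAG over PGK) of -0.15, and the 49 without one held 3 higher and 26 lower with a median of -0.19. The 10 with an ETS motif held 8 lower and 0 higher genes with a median of -0.36, and the 55 without one held 24 lower and 7 higher with a median of -0.16. The 7 with a YY1 motif held 4 lower and 1 higher genes with a median of -0.30, and the 58 without one held 28 lower and 6 higher with a median of -0.17. Over all 13103 genes tested, 30.4% were lower and 31.6% higher in CAG. Shares over all tested genes with each motif are not given here, so a link between a motif and a direction was not tested. These counts describe letters in a window and say nothing of binding by the factor.

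Lower subunit genes outnumbered higher ones in the CAG line relative to the PGK line, mostly by small amounts. Of the 79 members with enough counts to test, 41 (51.9%) were lower in CAG and 7 (8.86%) were higher by edgeR's quasi-likelihood test at a Benjamini-Hochberg adjusted p under 0.05, while 31 did not pass. Over all 13103 genes tested in the same fit, 30.4% were lower and 31.6% higher in CAG, so the members' share of higher genes was below that of all genes and their share of lower genes above it. The share called in either direction was 60.8% of the members, near the 62.0% of all genes. The members' median log2 fold change was -0.19, with a range of -0.85 to 0.70, against a median of 0.00 over all genes tested. Fold changes were below 0 for 67 of the 79, with 7 members called lower by more than 1.5-fold and 1 (NDUFA3) called higher by more than 1.5-fold. Among all 13103 genes tested, 6586 were below 0, 1041 were called lower by more than 1.5-fold and 1621 higher. Without CAG library 1, the higher members numbered 4 and the lower ones still 41. Fewer transcripts per cell and fewer cells with the transcript cannot be told apart in these bulk libraries.

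**Figure D1:**
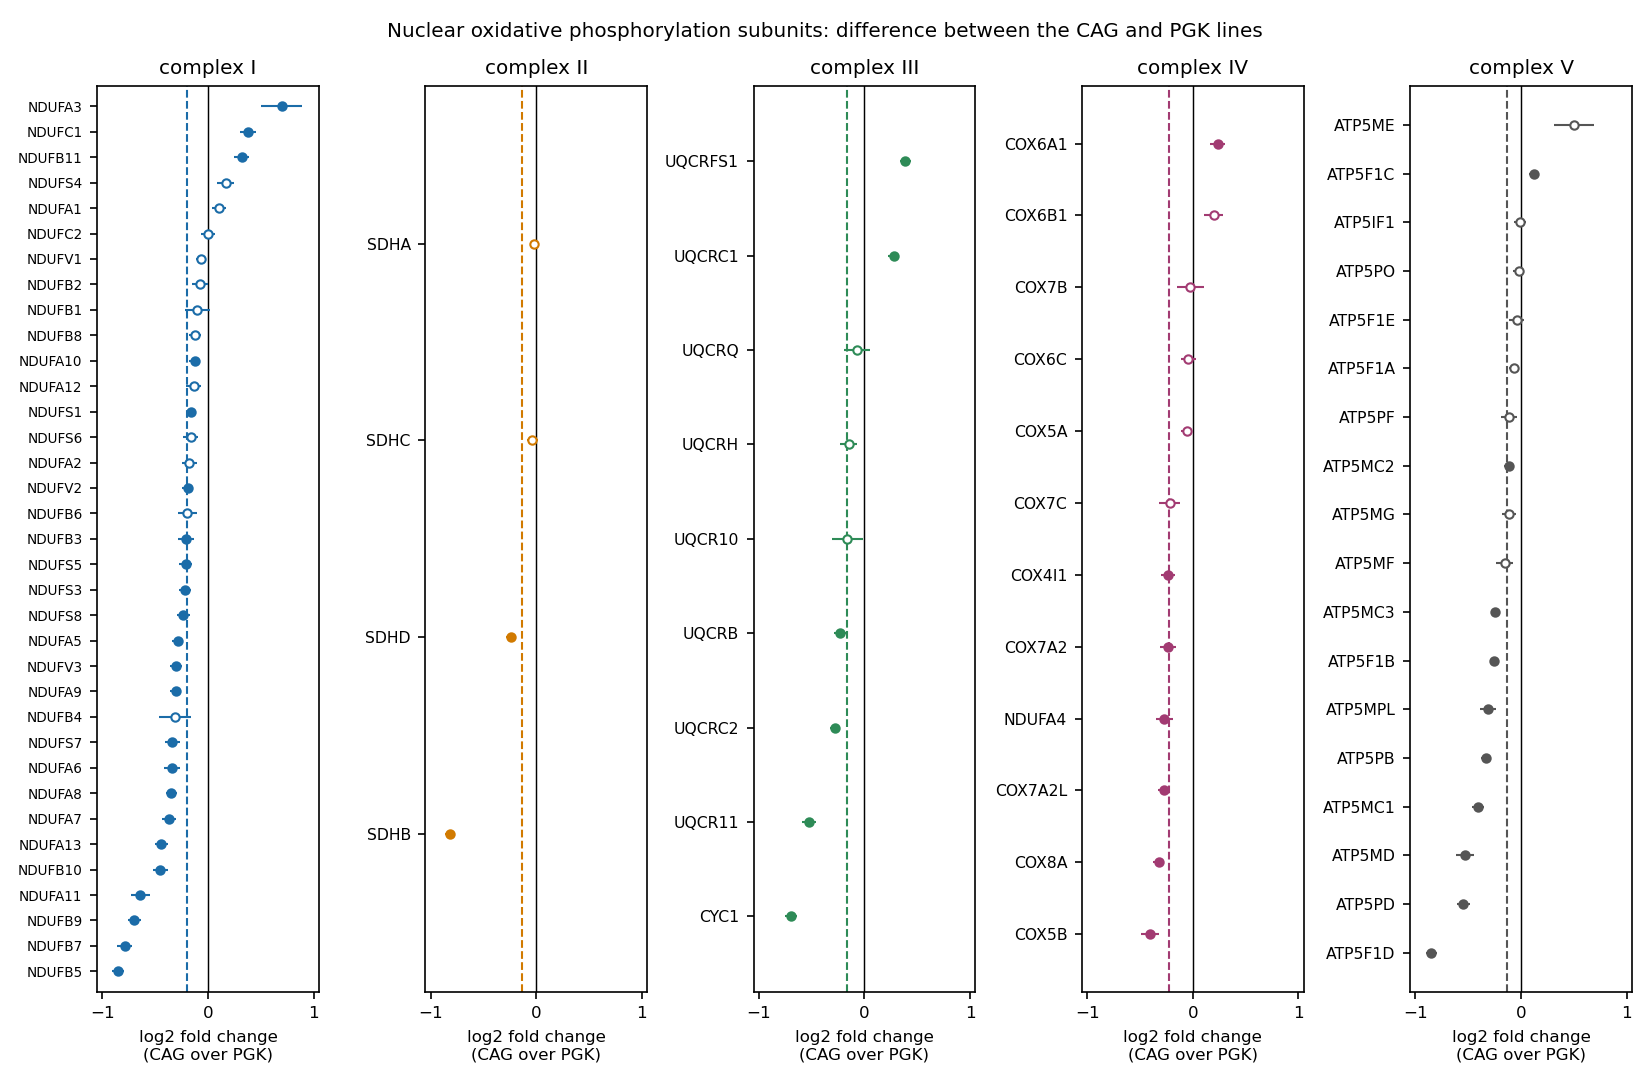
Log2 fold change (CAG over PGK) of the tested members, all but 1, in 1 panel per complex, with bars of 1 standard error. Filled points passed the test and open points did not, and dashed lines mark each complex's median. All 5 medians lie below 0, and NDUFA3 at 0.70 is the highest point.

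The 3 CAG libraries gave 43 members that lay below all 3 PGK libraries and 7 that lay above them, while 29 overlapped. Among all genes tested, 32.0% lay below in this sense and 33.5% above. Summed over all members, the level was 9999, 9489 and 9877 CPM in the CAG libraries, against 11977, 10844 and 11090 CPM in the PGK libraries. The mean sum was 9789 ± 267 CPM in CAG and 11303 ± 596 CPM in PGK (SD, n = 3 each), a ratio of 0.866. Every CAG library was below every PGK library in this sum, and the same held in each complex taken alone.

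**Figure D2:**
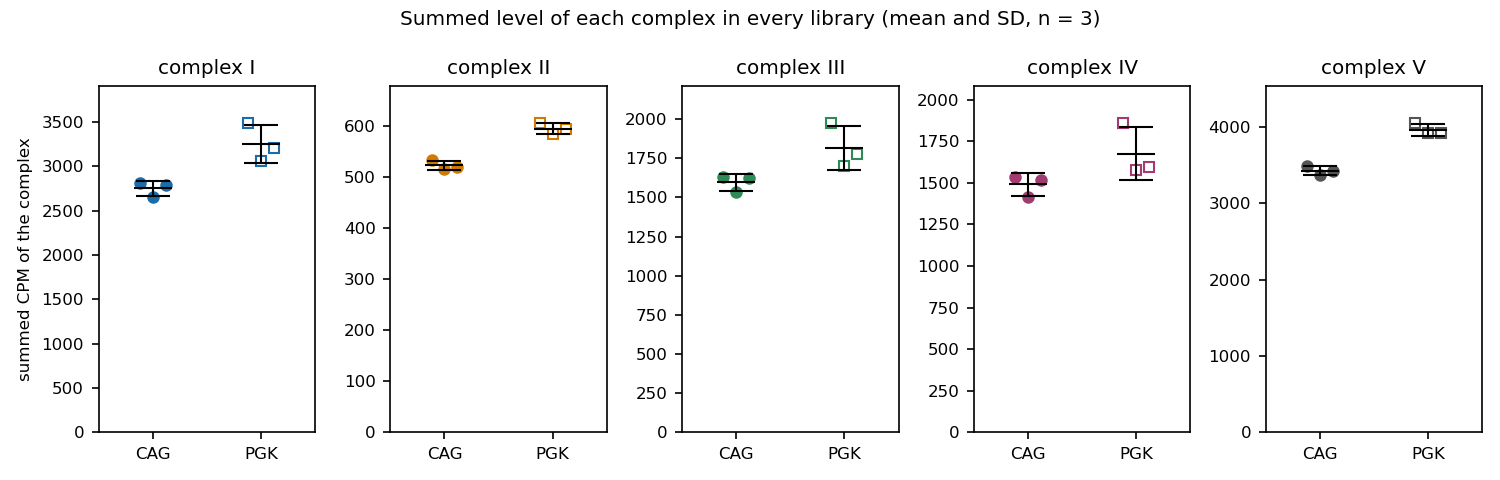
Summed CPM of the members of each complex in each of the 6 libraries, with CAG filled and PGK open. Bars are mean and SD over 3 libraries. The CAG libraries lie below the PGK libraries in every panel, with the narrowest gap in complex IV, where the highest CAG library reached 1537 CPM and the lowest PGK library 1576 CPM.

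PGK library 1 stood apart from the other libraries of its line in these genes. Its members lay a median of 0.11 log2 units above the line's mean, and it was the highest PGK library for 57 of the 79 members. The deviation was -0.08 in PGK library 2, and CAG library 2 was the lowest of its line for 59 members, with a deviation of -0.06. All tested genes with under 1.5 kb of exons deviated the same way, by 0.08 in PGK library 1, -0.07 in PGK library 2 and -0.05 in CAG library 2, and the part this plays in the members' values was not tested. Without PGK library 1, 40 members were lower and 10 higher, and the complex medians were -0.15 for I, -0.13 for II, -0.04 for III, -0.12 for IV and -0.10 for V. By length, the 23 members with under 1.5 kb of exons had a median log2 fold change of -0.18 (10 lower, 2 higher). Over all 474 tested genes of that length the median was -0.05, with 31.4% lower and 21.3% higher. The 56 longer members had a median of -0.22 (31 lower, 5 higher). Over all 12447 longer genes the median was 0.00, with 30.5% lower and 32.2% higher.

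Complex I, the NADH dehydrogenase and entry point of electrons from NADH, had 20 of 36 members lower in CAG, 3 higher and 13 that did not pass, with a median log2 fold change of -0.20. Its summed level was 2815, 2651 and 2788 CPM in the CAG libraries, against 3487, 3064 and 3209 CPM in the PGK libraries, a ratio of 0.846. Of the 7 nuclear core subunits, which hold the flavin and the iron-sulfur clusters or the ubiquinone site, 5 were lower and 0 higher, with a median of -0.19. NDUFS7, the subunit of the last iron-sulfur cluster before ubiquinone, had 95.7, 91.0 and 100 CPM in the CAG libraries, against 130, 105 and 127 CPM in the PGK libraries (log2 fold change -0.34, SE 0.07, edgeR adjusted p = 5.33e-04). It was the core subunit with the largest change, and its libraries did not overlap between the lines. NDUFS1, which carries iron-sulfur clusters of the NADH-binding arm, had 143, 154 and 149 CPM in the CAG libraries, against 159, 172 and 167 CPM in the PGK libraries (log2 fold change -0.16, SE 0.05, edgeR adjusted p = 0.00717). In NDUFS1 the fall was small but every CAG library lay below every PGK library. NDUFS3, NDUFS8 and NDUFV2 were also lower, with log2 fold changes of -0.22, -0.23 and -0.19. NDUFV1, the subunit that binds NADH and the flavin, had 214, 210 and 205 CPM in the CAG libraries, against 222, 205 and 231 CPM in the PGK libraries, and did not pass (log2 fold change -0.07, SE 0.05, edgeR adjusted p = 0.251). Its libraries overlapped between the lines. Without PGK library 2, NDUFV1 passed with a log2 fold change of -0.11. The exons of NDUFS1 overlap those of EEF1B2, those of NDUFS3 overlap PTPMT1, CELF1 and KBTBD4, and those of NDUFV1 overlap C11orf72, so their counts may be shared in part.

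The largest falls in complex I were in NDUFB5, NDUFB7 and NDUFB9. The NDUFB genes encode accessory subunits of the distal end of the membrane arm, the proton-pumping part that lies farthest from the NADH site. Of 11 NDUFB members, 5 were lower and 1 higher, with a median of -0.21, and their summed level had a ratio of 0.762 between CAG and PGK. Their share of lower genes, 45.5%, was below the 71.4% of the core subunits and the 55.6% of the other accessory ones. The tested genes nearest to NDUFB5, NDUFB7 and NDUFB9 on the chromosome had median log2 fold changes of -0.52, -0.37 and -0.36. The part of position in these falls was not tested. NDUFB5 (ENSG00000136521, chromosome 3) had 37.9, 35.5 and 35.9 CPM in the CAG libraries, against 67.3, 62.4 and 67.7 CPM in the PGK libraries (log2 fold change -0.85, SE 0.06, edgeR adjusted p = 3.31e-10). NDUFB7 (ENSG00000099795, chromosome 19) had 94.5, 83.6 and 91.2 CPM in the CAG libraries, against 174, 138 and 154 CPM in the PGK libraries (log2 fold change -0.79, SE 0.07, edgeR adjusted p = 3.27e-07). In both genes the highest CAG library lay far below the lowest PGK library. NDUFB9 (ENSG00000147684, chromosome 8) had 150, 135 and 144 CPM in the CAG libraries, against 249, 211 and 236 CPM in the PGK libraries (log2 fold change -0.70, SE 0.06, edgeR adjusted p = 1.27e-08), and its exons overlap MTSS1 and TATDN1. NDUFB10 (ENSG00000140990, chromosome 16) was lower too, with 152 ± 8.06 CPM in CAG and 208 ± 24.1 CPM in PGK (SD, n = 3 each) and a log2 fold change of -0.45. NDUFB11 (ENSG00000147123, X chromosome), whose protein lies in the same arm, went the other way, with 92.4, 92.0 and 104 CPM in the CAG libraries, against 82.3, 68.6 and 80.4 CPM in the PGK libraries (log2 fold change 0.32, SE 0.07, edgeR adjusted p = 6.40e-04). It was the NDUFB member that rose in CAG, and its libraries did not overlap between lines, but its exons overlap those of RBM10 on the other strand.

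Among the 18 other accessory subunits of complex I, 10 were lower and 2 higher, with a median of -0.19. NDUFA3 (ENSG00000170906, chromosome 19) had 35.4, 29.8 and 36.4 CPM in the CAG libraries, against 27.2, 18.2 and 17.4 CPM in the PGK libraries (log2 fold change 0.70, SE 0.19, edgeR adjusted p = 0.0206). Every CAG library lay above every PGK library. It had the largest rise of any member with a large standard error, its exons overlap TFPT, and it has 5 named pseudogenes. Its call was lost without CAG library 1 (edgeR adjusted p = 0.0720) and without PGK library 2 (edgeR adjusted p = 0.0773). NDUFC1 (ENSG00000109390, chromosome 4) had 43.6, 42.2 and 43.8 CPM in the CAG libraries, against 38.2, 30.9 and 30.6 CPM in the PGK libraries (log2 fold change 0.38, SE 0.07, edgeR adjusted p = 2.43e-04), and its exons overlap MGARP on the same strand. NDUFA11, chosen after its values were seen like NDUFA13 and NDUFB10, had 23.3, 23.6 and 23.2 CPM in the CAG libraries, against 32.2, 34.3 and 42.5 CPM in the PGK libraries, with a log2 fold change of -0.64. NDUFA13, an accessory subunit also known for a role in cell death, had 28.8, 29.7 and 29.6 CPM in the CAG libraries, against 40.4, 37.0 and 42.1 CPM in the PGK libraries, with a log2 fold change of -0.44. In both genes the CAG libraries hardly varied and all lay below the PGK libraries, but their exons overlap other genes on the same strand. Complex I thus held both the largest fall and the largest rise among all members. Without members whose exons overlap another gene, 20 members of complex I remained, of which 13 were lower and 0 higher, and without PGK library 1 the higher members of complex I numbered 5.

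Complex II, succinate dehydrogenase, had 2 of 4 members lower in CAG, SDHB strongly and SDHD slightly, and 0 higher. SDHB (ENSG00000117118, chromosome 1), the iron-sulfur subunit, had 67.2, 63.0 and 63.9 CPM in the CAG libraries, against 116, 112 and 114 CPM in the PGK libraries (log2 fold change -0.82, SE 0.05, edgeR adjusted p = 1.37e-10). The CAG libraries lay far below the PGK libraries with little spread within either line, and the fitted CAG-over-PGK ratio was 0.568. SDHD, 1 of the 2 membrane anchors and shown above with its NRF1 motif, had 94.0, 94.0 and 91.0 CPM in the CAG libraries, against 109, 106 and 113 CPM in the PGK libraries (log2 fold change -0.24, SE 0.05, edgeR adjusted p = 3.68e-04), and its exons overlap TIMM8B. The fall of SDHD was smaller than that of SDHB, and its libraries did not overlap between the lines either. SDHA, the flavoprotein that oxidizes succinate, had 211, 208 and 210 CPM in the CAG libraries, against 215, 208 and 213 CPM in the PGK libraries, and did not pass (log2 fold change -0.02, SE 0.04, edgeR adjusted p = 0.764). SDHC, the other anchor, had 161, 150 and 155 CPM in the CAG libraries, against 165, 159 and 153 CPM in the PGK libraries, and did not pass either (log2 fold change -0.04, SE 0.05, edgeR adjusted p = 0.535). The libraries of the lines overlapped for both SDHA and SDHC, and the exons of SDHC overlap CFAP126. The median over the 4 members was -0.14, and the sums were 533, 515 and 520 CPM in CAG, against 605, 585 and 594 CPM in PGK.

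Complex III, the cytochrome bc1 complex that passes electrons from ubiquinol to cytochrome c, had 4 of 9 members lower, 2 higher and 3 that did not pass, with a median of -0.16 that was -0.04 without PGK library 1. Its electron-carrying nuclear subunits went in opposite directions. CYC1 (ENSG00000179091, chromosome 8), which is cytochrome c1, had 231, 214 and 227 CPM in the CAG libraries, against 392, 331 and 369 CPM in the PGK libraries (log2 fold change -0.70, SE 0.06, edgeR adjusted p = 7.36e-09). UQCRFS1 (ENSG00000169021, chromosome 19), the Rieske iron-sulfur protein, had 103, 98.6 and 108 CPM in the CAG libraries, against 83.9, 74.8 and 78.3 CPM in the PGK libraries (log2 fold change 0.39, SE 0.06, edgeR adjusted p = 7.35e-06). In each of these genes the 3 CAG libraries stood clear of the 3 PGK libraries, below for CYC1 and above for UQCRFS1, whose NRF1 window is printed above, as is that of UQCRC1. The core proteins, which brace the complex on the matrix side, also parted. UQCRC1 had 354, 354 and 349 CPM in the CAG libraries, against 302, 267 and 303 CPM in the PGK libraries (log2 fold change 0.28, SE 0.05, edgeR adjusted p = 1.16e-04). UQCRC2 had 203, 201 and 196 CPM in the CAG libraries, against 241, 252 and 234 CPM in the PGK libraries (log2 fold change -0.28, SE 0.05, edgeR adjusted p = 3.62e-05). The summed level of the 2 core proteins was 557, 555 and 546 CPM in CAG and 544, 519 and 537 CPM in PGK, a ratio of 1.04. Of the 5 small subunits, UQCR11 and UQCRB were lower. UQCR11 had 110, 100 and 117 CPM in the CAG libraries, against 172, 142 and 154 CPM in the PGK libraries (log2 fold change -0.52, SE 0.07, edgeR adjusted p = 5.36e-06). UQCRB had 202 ± 9.52 CPM in CAG and 237 ± 19.5 CPM in PGK (SD, n = 3 each), and UQCR10, UQCRH and UQCRQ did not pass, with log2 fold changes of -0.16, -0.15 and -0.07.

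Complex IV, cytochrome c oxidase, had 6 of its 12 tested members lower in CAG, 1 higher and 5 that did not pass, with a median of -0.23 that was -0.12 without PGK library 1. Its summed level was 1537, 1414 and 1520 CPM in the CAG libraries and 1859, 1576 and 1594 CPM in the PGK libraries. COX5B (ENSG00000135940, chromosome 2), a subunit on the matrix side that binds zinc, had the largest fall, with 128, 115 and 130 CPM in the CAG libraries, against 189, 150 and 155 CPM in the PGK libraries (log2 fold change -0.41, SE 0.08, edgeR adjusted p = 0.00114). COX8A, the ubiquitous form of subunit VIII, had 109, 103 and 111 CPM in the CAG libraries, against 141, 127 and 136 CPM in the PGK libraries (log2 fold change -0.32, SE 0.05, edgeR adjusted p = 2.93e-05), and its exons overlap AP000721.1. Both carry the ETS motif printed above. COX4I1, the ubiquitous form of subunit IV, had 305, 292 and 322 CPM in the CAG libraries, against 395, 319 and 365 CPM in the PGK libraries (log2 fold change -0.23, SE 0.07, edgeR adjusted p = 0.00640). It passed the test although the highest CAG library exceeded the lowest PGK library, and its exons overlap EMC8. COX6A1, the form of subunit VIa found outside muscle, had 96.5, 95.4 and 76.7 CPM in the CAG libraries, against 76.3, 75.5 and 76.4 CPM in the PGK libraries (log2 fold change 0.24, SE 0.07, edgeR adjusted p = 0.00951), and its exons overlap AL021546.1 on the same strand. Its rise rested on CAG libraries 1 and 2, while CAG library 3 was just above the highest PGK library. The call was lost without CAG library 1 (edgeR adjusted p = 0.0616) or PGK library 2 (edgeR adjusted p = 0.0516). COX6B1 pointed the same way, with 122, 103 and 117 CPM in the CAG libraries, against 115, 92.6 and 90.8 CPM in the PGK libraries, and did not pass (log2 fold change 0.20, SE 0.09, edgeR adjusted p = 0.0822). It passed by DESeq2 (adjusted p = 0.0451), and in edgeR without CAG library 2 (adjusted p = 0.0155) or PGK library 1 (adjusted p = 1.04e-04). COX7B, in contrast, had a log2 fold change of -0.02 (SE 0.13).

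Members of complex IV that come as alternative forms were expressed through the ubiquitous form. COX4I2, COX6A2, COX7A1, COX7B2 and COX8C, which are used in tissues such as lung, muscle or testis, had 0 counts in all 6 libraries, and a count of 0 allows up to 0.128 to 0.137 CPM at these depths for counting error alone. COX6B2, the testis form of subunit VIb, had 3, 2 and 4 counts in the CAG libraries, against 15, 8 and 8 in the PGK libraries, too few to test. COX7A2, the ubiquitous form of subunit VIIa, had 91.8, 87.7 and 99.4 CPM in the CAG libraries, against 125, 101 and 103 CPM in the PGK libraries (log2 fold change -0.24, SE 0.08, edgeR adjusted p = 0.0147). That call was lost without CAG library 1 (edgeR adjusted p = 0.0650) or CAG library 2 (edgeR adjusted p = 0.0526). COX7A2L, related to it and known to join complexes III and IV into supercomplexes, had 74.9, 73.6 and 74.9 CPM in the CAG libraries, against 95.4, 88.5 and 86.5 CPM in the PGK libraries (log2 fold change -0.28, SE 0.05, edgeR adjusted p = 1.65e-04). NDUFA4, first assigned to complex I, had 99.8, 92.0 and 95.7 CPM in the CAG libraries, against 133, 111 and 103 CPM in the PGK libraries (log2 fold change -0.27, SE 0.08, edgeR adjusted p = 0.00748). In all 3 genes every CAG library lay below every PGK library, by a narrow gap for COX7A2 and NDUFA4.

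Complex V, the ATP synthase, had 9 of 18 tested members lower, 1 higher and 8 that did not pass, with a median of -0.14, which was -0.22 without CAG library 1 and -0.21 without PGK library 3. Its sums were 3486, 3373 and 3424 CPM in the CAG libraries and 4051, 3921 and 3918 CPM in the PGK libraries, a ratio of 0.865. ATP5F1B, the catalytic beta subunit and the most abundant member, had 942, 956 and 936 CPM in the CAG libraries, against 1124, 1136 and 1114 CPM in the PGK libraries (log2 fold change -0.25, SE 0.04, edgeR adjusted p = 5.95e-05). ATP5F1A, the alpha subunit beside it in the catalytic head, had 494, 487 and 493 CPM in the CAG libraries, against 500, 513 and 534 CPM in the PGK libraries, and did not pass (log2 fold change -0.07, SE 0.04, edgeR adjusted p = 0.185), and its exons overlap HAUS1. ATP5F1D (ENSG00000099624, chromosome 19), the delta subunit at the foot of the central stalk, had 99.5, 97.2 and 98.8 CPM in the CAG libraries, against 182, 164 and 187 CPM in the PGK libraries (log2 fold change -0.85, SE 0.05, edgeR adjusted p = 1.48e-10). Its CAG libraries hardly differed from each other and lay far below every PGK library. ATP5F1C, the gamma subunit that turns inside the head, rose slightly, with 158, 156 and 151 CPM in the CAG libraries, against 139, 147 and 140 CPM in the PGK libraries (log2 fold change 0.13, SE 0.05, edgeR adjusted p = 0.0254). That call was lost without any 1 of CAG libraries 1 and 2 and PGK libraries 1 and 3, with edgeR adjusted p between 0.0666 and 0.0930. Of the 5 subunits of the catalytic head and central stalk, 2 were thus lower and 1 higher.

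Outside the head of complex V, no member was higher by the test. The ring of c subunits is encoded by ATP5MC1, ATP5MC2 and ATP5MC3, which give the same mature protein from different precursors, and all 3 were lower. ATP5MC1 had 109, 103 and 116 CPM in the CAG libraries, against 150, 136 and 149 CPM in the PGK libraries (log2 fold change -0.41, SE 0.06, edgeR adjusted p = 4.03e-06). ATP5MC3 had 276, 266 and 278 CPM in the CAG libraries, against 334, 321 and 315 CPM in the PGK libraries (log2 fold change -0.24, SE 0.05, edgeR adjusted p = 1.26e-04). Neither gene had a CAG library within the PGK range. ATP5MC2 had a smaller fall, with 189 ± 5.07 CPM in CAG and 204 ± 3.57 CPM in PGK (SD, n = 3 each) and a log2 fold change of -0.11. The call of ATP5MC2 was lost when library size alone was used for scaling (edgeR adjusted p = 0.134) and without any 1 of the CAG libraries or PGK library 2 (edgeR adjusted p between 0.0557 and 0.161). In the peripheral stalk, which holds the head still, ATP5PD and ATP5PB were lower. ATP5PD (ENSG00000167863, chromosome 17) had 75.0, 79.2 and 68.4 CPM in the CAG libraries, against 116, 107 and 102 CPM in the PGK libraries (log2 fold change -0.55, SE 0.06, edgeR adjusted p = 3.81e-07), and its exons overlap KCTD2. Its CAG libraries all lay below its PGK libraries. ATP5PB, whose exons overlap WDR77, had 259 ± 5.45 CPM in CAG and 326 ± 6.40 CPM in PGK (SD, n = 3 each), while ATP5PF and ATP5PO did not pass. ATP5MD, now named ATP5MK, a small membrane subunit tied to dimers of the enzyme, had 65.7, 58.4 and 67.2 CPM in the CAG libraries, against 106, 84.2 and 86.1 CPM in the PGK libraries (log2 fold change -0.53, SE 0.09, edgeR adjusted p = 1.39e-04), with exons that overlap TAF5. The lines did not overlap in ATP5MD. ATP5IF1, the inhibitor that blocks ATP hydrolysis, had 153, 141 and 149 CPM in the CAG libraries, against 161, 141 and 143 CPM in the PGK libraries, and did not pass (log2 fold change -0.01, SE 0.06, edgeR adjusted p = 0.902). Its libraries overlapped between the lines. ATP5ME, a membrane subunit known as e, had the highest fold change of the complex, with 48.4, 38.1 and 49.3 CPM in the CAG libraries, against 40.1, 29.4 and 26.6 CPM in the PGK libraries, and did not pass (log2 fold change 0.50, SE 0.19, edgeR adjusted p = 0.0696). Its lines overlapped and its exons overlap MYL5. ATP5MF-PTCD1 was at 0 counts in all libraries, and ATP5MGL had 3, 1 and 0 counts in CAG and 1, 0 and 1 in PGK.

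**Figure D3:**
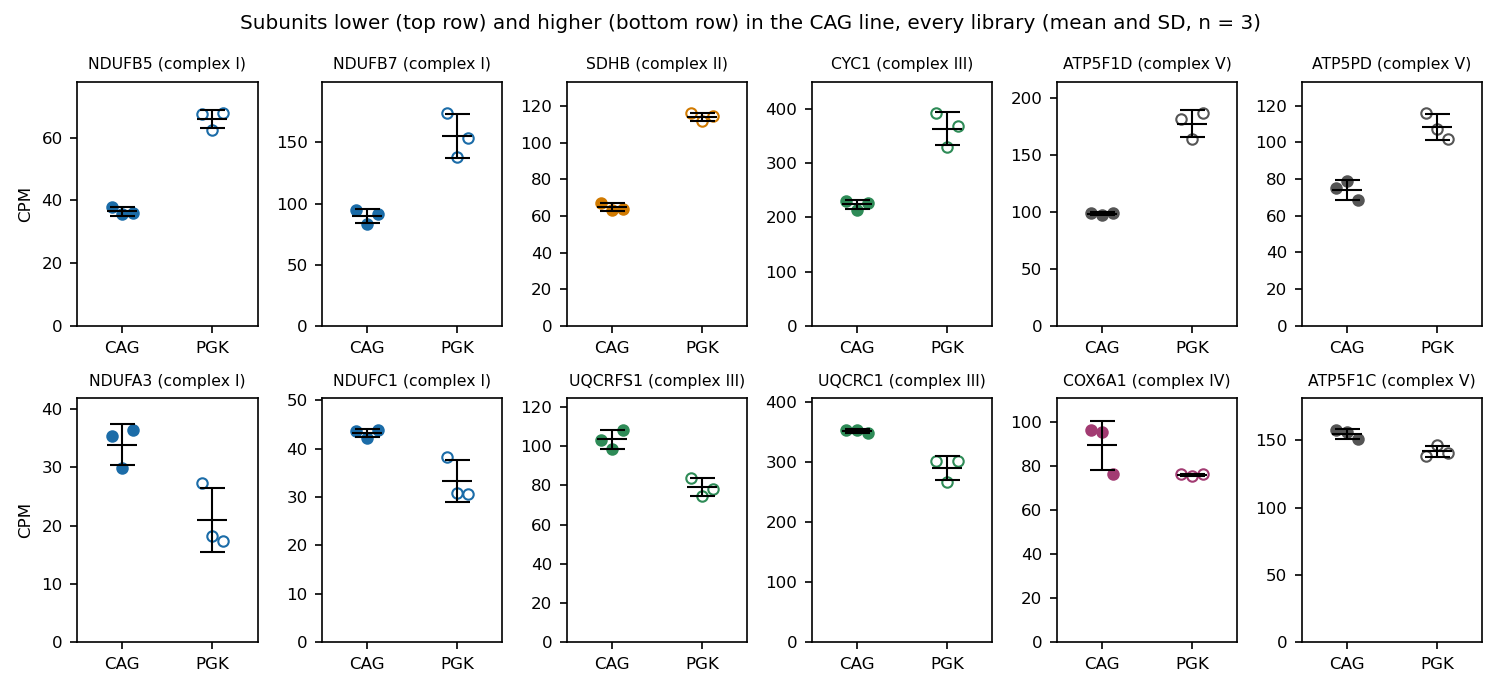
CPM of 6 members lower in CAG (top row) and 6 higher in CAG (bottom row) in every library, with CAG filled and PGK open. Bars are mean and SD over 3 libraries. The CAG and PGK points are clear of each other in the top row, while COX6A1 has a CAG library at 76.7 CPM beside PGK libraries at up to 76.4 CPM.

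Per kilobase of merged exon, levels differed more between genes than between lines. The median member of complex I had 27.2 CPM per kb in CAG and 30.2 CPM per kb in PGK, and that of complex II 25.6 CPM per kb in CAG and 32.0 CPM per kb in PGK. Complex III stood at 55.3 CPM per kb in CAG and 72.7 in PGK, complex IV at 65.3 in CAG and 66.1 in PGK, and complex V at 44.0 in CAG and 47.8 in PGK. ATP5F1B was the highest member, at 407 CPM per kb in CAG and 484 CPM per kb in PGK, and NDUFA11 the lowest tested one, at 4.83 in CAG and 7.51 in PGK. The length is that of the merged exons of all annotated transcripts, and which of them these cells use was not tested.

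The members' fold changes went with those of their neighbours on the chromosome. For each member, the median log2 fold change of the 50 nearest tested genes, 25 on each side, was taken. Members near a chromosome end had fewer neighbours, down to 27 for SDHA and ATP5ME. The median of the neighbours was below 0 for 35 of the 41 lower members (85.4%, against 81.8% of all lower genes) and above 0 for 7 of the 7 higher members (100%, against 64.2% of all higher genes). Across the 79 members, the fold change and the neighbours' median had a Pearson r of 0.83 and a Spearman rho of 0.67, and across 12908 genes 0.35 and 0.48. These are descriptions across genes, which are not independent replicates and share the same 6 libraries. SDHB had the lowest neighbourhood, with a median of -0.66, and ATP5F1D, NDUFB5 and CYC1 lay in neighbourhoods of -0.52, -0.52 and -0.38. NDUFA3, NDUFC1, UQCRC1, COX6A1 and ATP5F1C lay in neighbourhoods of 0.47, 0.40, 0.42, 0.41 and 0.52. Of 12 members whose neighbourhood lay below -0.25, 11 were lower and 0 higher, with a median of -0.67. Of 10 whose neighbourhood lay above 0.25, 6 were higher and 0 lower, with a median of 0.26. Shares over all genes in such shifted neighbourhoods are not given here, so these counts are a description and not a result about the members.

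**Figure D4:**
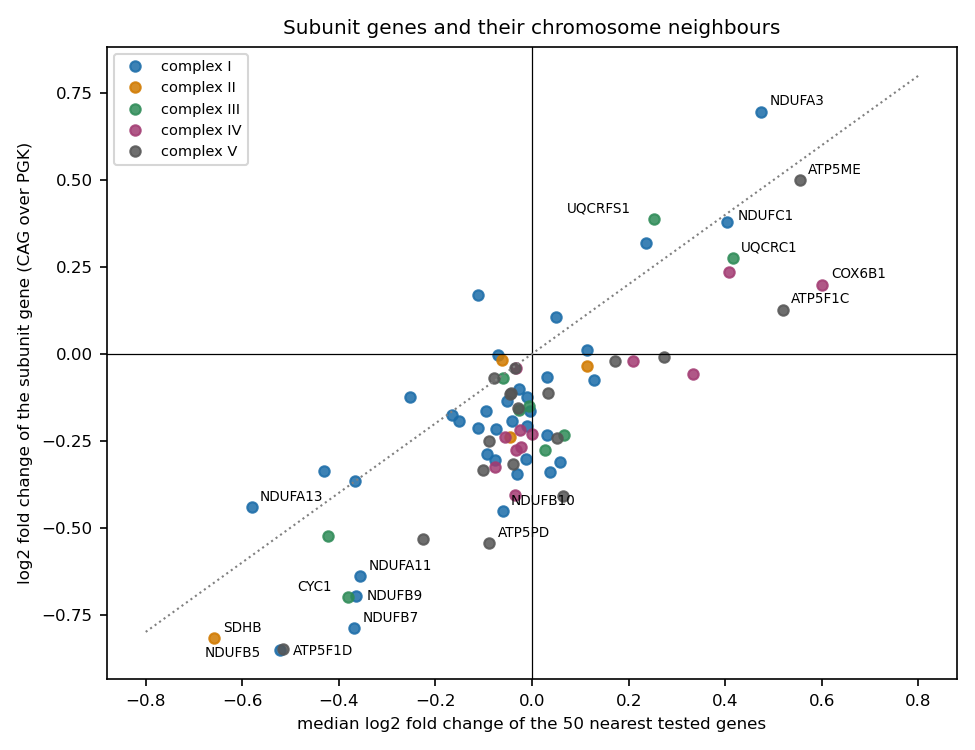
Log2 fold change (CAG over PGK) of each of the 79 tested members against the median log2 fold change of its 50 nearest tested genes (fewer near chromosome ends), coloured by complex. The dotted line marks equal values. Most points, 67 of 79, lie below that line.

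In the other 57 members, whose neighbourhood median lay within 0.25 of 0, the balance of calls was one-sided as well. Of these, 30 (52.6%) were lower and 1 (1.75%) was higher, with a median log2 fold change of -0.19. Among all 9274 tested genes in such neighbourhoods, 30.5% were lower and 23.4% higher, with a median of -0.03. The bound of 0.25 was chosen after results of these data were known. The single higher member was NDUFB11, whose neighbourhood of 0.24 was just inside that bound. ATP5PD, with a neighbourhood of -0.09, NDUFB10 (-0.06), COX5B (-0.04) and ATP5MC1 (0.06) were among the members that fell in such places. Taken against their own neighbourhoods, 67 of the 79 members lay below, and the median of the difference was -0.16.

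Chromosome 19 held 10 tested members and showed both directions along its length. In gene order, the first 7 (ATP5F1D, NDUFS7, UQCR11, NDUFA11, NDUFA7, NDUFB7 and NDUFA13) were all lower, with a median of -0.52. The last 3 were UQCRFS1 and NDUFA3, which were higher, and COX6B1, with a log2 fold change of 0.20 that did not pass. The median of the members' neighbourhood values was -0.42 in the first 7 and 0.47 in the last 3. The summed level of the first 7 was 503, 472 and 506 CPM in the CAG libraries and 800, 679 and 766 CPM in the PGK libraries. For the last 3 it was 260, 232 and 262 CPM in the CAG libraries, against 226, 186 and 186 CPM in the PGK libraries. The place of this division was set from the members' fold changes, so these sums are a description only. The 10 members together belong to 4 complexes. On chromosome 8, NDUFB9, CYC1 and UQCRB were lower and COX6C had a log2 fold change of -0.04. The members' median there was -0.47, against -0.13 over all 448 tested genes of that chromosome. Chromosome 2 had 6 of 6 members lower, with a median of -0.23, against -0.03 over its 872 tested genes. Chromosome 5, which carries SDHA, had 0 of 6 members called in either direction. Their median was -0.12, against -0.15 over the 577 tested genes of chromosome 5. Over all genes tested, 30.4% were lower and 31.6% higher. Shares of all genes called on each chromosome are not given here, so the counts by chromosome are a description only.

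**Figure D5:**
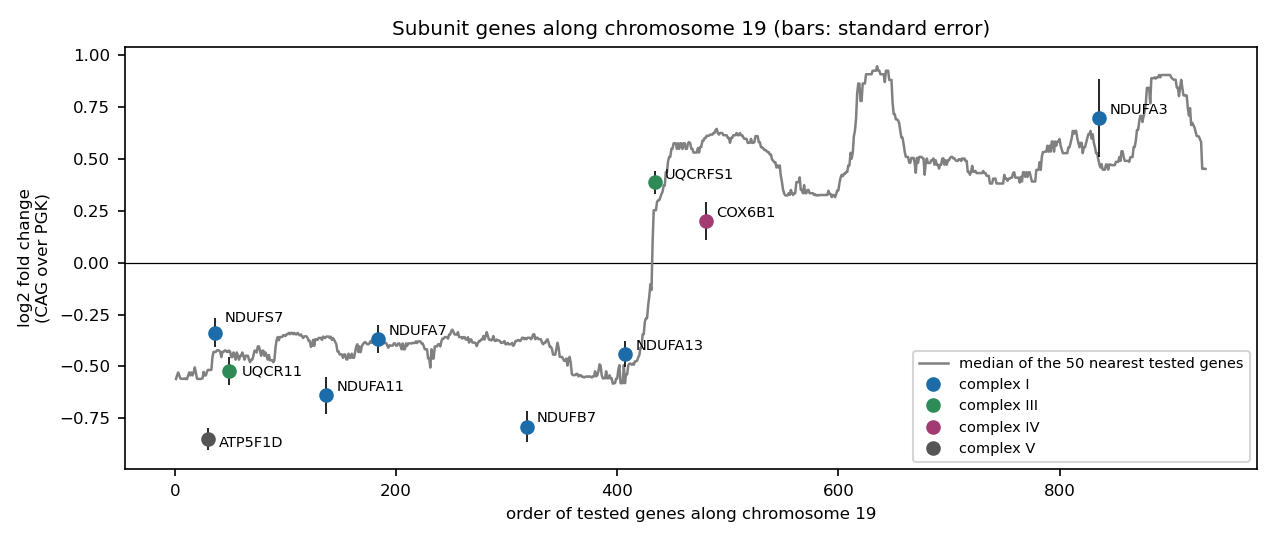
Log2 fold change (CAG over PGK) of the 10 tested members on chromosome 19, coloured by complex with bars of 1 standard error, against the order of tested genes along the chromosome. The grey line is the median log2 fold change of the 50 nearest tested genes at each place (fewer near the chromosome ends). The 7 members in the first stretch lie between -0.85 and -0.34, and the last 3 lie between 0.20 and 0.70.

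Genes that build or feed the complexes were counted in lists chosen with earlier results of these data known. Of 17 assembly factors of complex I, 8 were lower and 3 higher (median -0.10), beside 30.4% lower and 31.6% higher over all genes tested. The largest changes were in ECSIT, lower by a log2 fold change of -0.72, and NDUFAF3, higher by 0.62. Complex II factors had 2 of 4 lower and 1 higher, complex III factors 3 of 6 lower and 0 higher, and complex IV factors 8 of 22 lower and 1 higher. Of 5 complex V factors, ATPAF1, a chaperone of the beta subunit, was higher at 0.45 and none was lower. Of the 13 subunits encoded in the mitochondrial genome, 0 were lower and 1 was higher: MT-CYB, the cytochrome b of complex III, with a log2 fold change of 0.20. Their summed level was 34192, 34006 and 30081 CPM in the CAG libraries, against 31870, 36825 and 31814 CPM in the PGK libraries, and the lines overlapped. Electron carriers and their synthesis had 4 of 11 lower and 4 higher, which is near the shares over all genes, as is the share of lower complex IV factors. Within the carriers, log2 fold changes ran from -0.39 to 0.51, and cytochrome c (CYCS) was lower at -0.32.

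Of the 79 tested members, 32 have exons that overlap those of another gene in the table and 45 of the 87 members have named pseudogenes, with COX6C, NDUFB4 and NDUFA5 holding the most. How the counting treated strand and multi-mapping reads is not stated in the sources at hand, so counts of these members are less certain. In the 47 tested members with no such exon overlap, 28 were lower and 3 higher.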

How the data were processed

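RNA-seq counts of 6 libraries, 3 CAG and 3 PGK, were used. The authors deposited raw whole-number counts for 20169 Ensembl genes, neither normalized nor pooled. The tools named per the submitters' processing notes were HISAT2 2.2.1, Bowtie2 2.5.1, featureCounts 2.0.3 and cutadapt 4.6, and the build was hg19. Their roles, the annotation, the strand setting and the treatment of multi-mapping reads are not stated in the sources used here. Names, gene order, merged exon lengths and exon overlaps came from the coordinates of GENCODE 29 (GRCh38), which matched 19346 rows (95.9%). The build of the counts was hg19, so these lengths and overlaps may differ from those in the counting.

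Counts were filtered with filterByExpr, scaled by TMM and tested with edgeR 4.0.16 in R 4.3.3 (quasi-likelihood, robust, two-sided, no covariates) over 13103 genes with Benjamini-Hochberg adjustment. Levels are CPM on TMM-scaled library sizes, and each SE was computed as log2 fold change divided by the square root of F. Floors are 3 counts per library and cover counting error only. No 2 libraries agreed within sampling noise (chi-square per degree of freedom of at least 3.42). The code was tested on simulated counts.

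The members, lists and motifs were chosen with earlier results of these data known. Named members were the called members with the 3 largest changes per direction and complex, all of complex II, the complex I core, CYC1, UQCRFS1, UQCRC1, UQCRC2, the paralogue sets, ATP5F1A, ATP5F1B, ATP5IF1, NDUFA4 and members at 0; others were chosen after their values were seen. The values of 1 member are not reported here, though it was kept in all counts and sums. Alternatives were DESeq2 1.42.0, limma-voom (limma 3.58.1), RLE, library size only, no filter, a filter of 1 CPM in 3 libraries, a replicate block, testing against a 1.5-fold change, each library left out, overlapping members left out, and neighbours' medians subtracted.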

Additional observations from a re-analysis of the deposited data

How the results depend on the processing

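Scaling by library size only put the median log2 fold change of all genes at 0.03, against 0.00 with TMM, and RLE, limma-voom and both other filters left every count by complex within 1.5 times of its value. With DESeq2 and with library size only, complexes IV and V each had 2 higher members, and with library size only the complex II median was -0.10. The test against a fold of 1.5 called 0 higher and 4 lower members (complex I 2, II 1, V 1, and 0 in III and IV). It called 1512 of all 13103 genes tested, in either direction. Without members that overlap another gene, 3 members were higher and 28 lower; complex I had 0 higher and 13 lower, II 1 lower and IV 0 higher, and the medians of II and V were -0.42 and -0.25. With neighbours' medians subtracted, the medians of complexes I and V were -0.11 and -0.21.

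Leaving out 1 library at a time gave 4 to 10 higher and 37 to 46 lower members. Higher members ranged from 2 to 5 in complex I, 0 to 2 in IV and 0 to 1 in V, and medians from -0.25 to -0.044 in III and from -0.22 to -0.10 in V. NDUFA3 also missed the threshold with no low-count filter (edgeR adjusted p = 0.0569). Among members that did not pass, signs turned with library size only for SDHA (0.016), COX7B (0.011) and ATP5IF1 (0.024). With 1 library left out, log2 fold changes ran from -0.11 to 0.099 in COX7B and from -0.045 to 0.053 in ATP5IF1. The cause of these changes was not tested.

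Libraries of the 2 lines share replicate numbers, and whether the numbers pair them is not stated. Deviations of same-numbered libraries correlated weakly, at 0.11, 0.10 and 0.01, but each library correlated best with its own number. The main fit took the libraries as unpaired. With the replicate block, 51 members were lower and 10 higher, with 5 higher in complex I and 2 in IV. The block called 8861 of the 13103 genes tested, against 8125 without it. Values near the 3-count floor, such as COX6B2, are limited by depth.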

Other observations

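Genes that lie next to the chain in metabolism were counted in the same way. Of 13 genes of the tricarboxylic acid cycle, 5 were higher and 5 lower in CAG by edgeR's quasi-likelihood test, with a median log2 fold change of 0.06. These are 38.5% each way, beside 31.6% higher and 30.4% lower over all 13103 genes tested, so the split is near that of all genes. FH, fumarate hydratase, which acts on the product of complex II, had 46.3, 48.3 and 46.2 CPM in the CAG libraries, against 98.0, 112 and 104 CPM in the PGK libraries (log2 fold change -1.16, SE 0.06, edgeR adjusted p = 6.46e-12). This fall was larger than that of any subunit, although the 50 genes nearest to FH had a median of 0.18. SUCLA2, a subunit of succinyl-CoA ligase, was higher by 0.75, in a neighbourhood of 0.50.

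Of 10 regulators of respiratory genes, 5 were lower and 1 was higher, beside 30.4% lower and 31.6% higher over all genes tested. PPARGC1A, a coactivator of mitochondrial genes, had 2.48, 3.14 and 2.81 CPM in the CAG libraries, against 0.606, 1.39 and 0.876 CPM in the PGK libraries (log2 fold change 1.54, SE 0.23, edgeR adjusted p = 1.40e-05). Its close relative PPARGC1B went the other way, with 49.9, 51.1 and 50.5 CPM in the CAG libraries, against 76.4, 78.2 and 81.0 CPM in the PGK libraries. ESRRA, a nuclear receptor that works with both coactivators, was lower too, at a log2 fold change of -0.54.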
